A study of Homo sapiens with 9 samples.

Results

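In 22Rv1, a line of human prostate carcinoma cells with androgen receptor, 72 genes had clearly more RNA with either of 2 hairpins against CHD9 than with a hairpin against GFP. CHD9 belongs to the chromodomain helicases, which use ATP to remodel chromatin. The genes were chosen by 3 thresholds on CPM, the count of a gene scaled to a library total of 1000000 counts: a mean of at least 5 CPM over the 9 libraries, and a log2 ratio to shGFP of at least 0.7 with each hairpin, after adding 0.5 CPM to both means. Of 11173 genes that reached 5 CPM, 84 met both ratios, and 12 of those were set aside because they are on a list of 13 names that the rule leaves out. The 72 genes are a selection by measured level, so their ratios to shGFP are given as a description, with no test. The difference between the hairpins was tested gene by gene. The rule sets no limit on it, but it comes from the same 6 libraries as the ratios and is not independent of the selection, so counts of genes by this difference are a description. Relatives and chromosomal neighbours of the 72 genes were also tested.

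There were 3 groups of 3 libraries: cells with hairpin 1 against CHD9 (shCHD9_1), cells with hairpin 2 against CHD9 (shCHD9_2), and control cells with a hairpin against GFP (shGFP). The labels give the genotype as CHD9 knockdown in the groups with a CHD9 hairpin and as WT in shGFP, give no time after hairpin delivery and no clone, and do not say that replicates are separate cultures. The p-values here therefore rest on a spread between libraries that could be purely technical. Totals were 18911142 to 31968602 counts per library. CHD9 itself measured 14.5, 16.4 and 14.6 CPM with hairpin 1, 18.4, 19.1 and 19.6 CPM with hairpin 2, and 22.9, 20.7 and 23.3 CPM in shGFP, and was lower with hairpin 1 than with hairpin 2 (log2 difference -0.28, quasi-likelihood test of edgeR, Benjamini-Hochberg adjusted p = 0.0024). The 8 luminal prostate markers that are not among the 72 genes were present at 1 CPM or more, and their summed level was 2116 to 2146 CPM with hairpin 1, 2099 to 2114 CPM with hairpin 2 and 1952 to 1991 CPM in shGFP. They did not all go the same way, since HOXB13, a homeobox factor of the prostate, averaged 266, 254 and 168 CPM in that order of groups, and FOXA1, a pioneer factor for the androgen receptor, averaged 362, 386 and 461 CPM. Of 8 neuroendocrine markers, only SYP and ENO2 reached 1 CPM in shGFP, and CHGA and NEUROD1 had no count in any library. In the same order of groups SYP averaged 4.62, 2.57 and 2.15 CPM, ENO2 252, 267 and 259 CPM, and CHGB 0.189, 0.282 and 0.799 CPM. None of 4 leukocyte and 3 endothelial markers reached 1 CPM in shGFP. In bulk RNA, more cells of a type and more RNA per cell cannot be told apart.

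As background, a prostate luminal cell keeps its identity through transcription factors such as GATA2, which work around the androgen receptor, while matrix and adhesion proteins anchor it to its surroundings. Many of the other genes are best known from neurons, where channels, receptors, secreted peptides and adhesion proteins of the synapse carry and organise signals. Sorted by hand by their known roles, once the genes were known, 9 of the 72 genes act in transcription and chromatin, 19 in nerve cells and synapses, 11 in signalling, 8 in matrix and adhesion, 13 in membrane transport, lipid, glycan or organelle biology and 3 in the cytoskeleton. A further 4 are little described, and 5 are noncoding RNAs or pseudogenes. The share of each role among all tested genes was not counted, so these numbers do not show that a role is frequent here. None of 39 gene families defined by symbol held 3 or more of the genes.

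RefSeq (GRCh38.p14) gives a promoter window, 250 bases before to 50 after the gene start, for 41 of the 72 genes. The windows of the most abundant transcription factor genes GATA2 and NFIX, of the abundant secreted peptide gene VGF, and of TLE4, a corepressor gene with a large difference between the hairpins, are shown as examples, 5′ to 3′ on the strand of the gene. Capitals mark the GC box GGGCGG and the cAMP response core TGACG on either strand.
GATA2, chr3:128493152-128493451, minus strand: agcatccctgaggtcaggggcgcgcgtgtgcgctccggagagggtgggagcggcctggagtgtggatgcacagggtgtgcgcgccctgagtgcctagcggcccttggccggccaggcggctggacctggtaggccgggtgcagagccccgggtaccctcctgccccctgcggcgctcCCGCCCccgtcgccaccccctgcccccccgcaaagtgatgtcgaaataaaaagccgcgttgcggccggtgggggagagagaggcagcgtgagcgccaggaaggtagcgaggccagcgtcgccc
NFIX, chr19:12995225-12995524, plus strand: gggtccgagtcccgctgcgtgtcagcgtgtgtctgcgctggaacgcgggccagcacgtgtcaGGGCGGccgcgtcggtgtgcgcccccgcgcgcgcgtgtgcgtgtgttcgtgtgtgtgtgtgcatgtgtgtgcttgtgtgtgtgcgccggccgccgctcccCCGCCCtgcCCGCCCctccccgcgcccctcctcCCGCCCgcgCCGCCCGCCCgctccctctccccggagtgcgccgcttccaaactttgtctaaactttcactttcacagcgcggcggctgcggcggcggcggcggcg
VGF, chr7:101165520-101165819, minus strand: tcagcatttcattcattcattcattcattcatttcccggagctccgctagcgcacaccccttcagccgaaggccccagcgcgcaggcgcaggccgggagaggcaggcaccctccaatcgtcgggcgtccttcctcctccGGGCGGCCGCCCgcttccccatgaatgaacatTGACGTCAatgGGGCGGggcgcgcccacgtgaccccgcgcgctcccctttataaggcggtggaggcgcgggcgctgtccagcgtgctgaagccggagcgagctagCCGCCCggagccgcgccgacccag
TLE4, chr9:79571715-79572014, plus strand: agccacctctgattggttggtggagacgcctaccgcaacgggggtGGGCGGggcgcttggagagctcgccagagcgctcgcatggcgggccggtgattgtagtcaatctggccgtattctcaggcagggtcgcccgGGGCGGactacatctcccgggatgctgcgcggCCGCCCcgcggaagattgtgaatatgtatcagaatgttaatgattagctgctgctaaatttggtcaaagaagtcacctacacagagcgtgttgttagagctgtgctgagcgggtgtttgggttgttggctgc

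GC content was 72.3% in the GATA2 window, 74.0% in that of NFIX, 67.7% in that of VGF and 58.7% in that of TLE4. The windows held 1 GC box in GATA2, 6 in NFIX, 4 in VGF and 3 in TLE4. Only VGF, among these 4, held the cAMP response core, on both strands of an overlapping palindrome. Over all windows the GC box was found in 27 of 41 (65.9%) and in 72.7% of the windows of 8838 tested genes of at least 5 CPM. The cAMP response core was found in 7 of 41 (17.1%), against 35.5% of the tested windows, and the ETS core CCGGAAG in 2 of 41 (4.88%), against 20.9%. The xenobiotic response core GCGTG was found in 25 of 41 (61.0%), against 52.5%, and the androgen receptor core AGAACA in 4 of 41 (9.76%), against 8.07%. Promoter windows had a median GC content of 69.0%, against 66.0% in the tested windows, and a median observed-to-expected CpG ratio of 0.752, against 0.854. These are counts of letters in short windows of the 41 genes that matched, and say nothing on the binding of a factor.

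In each of the 72 genes all 6 CHD9 hairpin libraries lay above all 3 shGFP libraries, a pattern that 15.1% of 16855 tested genes showed and that the selection makes likely. The median log2 ratio to shGFP was 0.97 with hairpin 1 and 0.82 with hairpin 2. A level at least 2-fold above shGFP was reached by 38 genes with hairpin 1 and by 23 genes with hairpin 2. Most of the genes were weakly expressed in the control, with a median of 7.07 CPM in shGFP, 20 of them under 5 CPM, and only VGF, GATA2 and NFIX above 100 CPM. Summed over the 72 genes, mean levels came to 3835 CPM with hairpin 1, 3409 CPM with hairpin 2 and 1884 CPM in shGFP. JDP2, TSPAN1 and TENM1 lay just inside the ratio threshold, where the smaller of the log2 ratios was 0.701, 0.704 and 0.705, while GNG13, RPRML and SEMA3F lay just outside at 0.697, 0.697 and 0.692. The mean level set the edge for HIC1 at 5.00 CPM, NXN at 5.12 CPM and KIFC3 at 5.18 CPM, while TLL1 at 4.99 CPM and SOX8 at 4.88 CPM missed it.

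**Figure D1:**
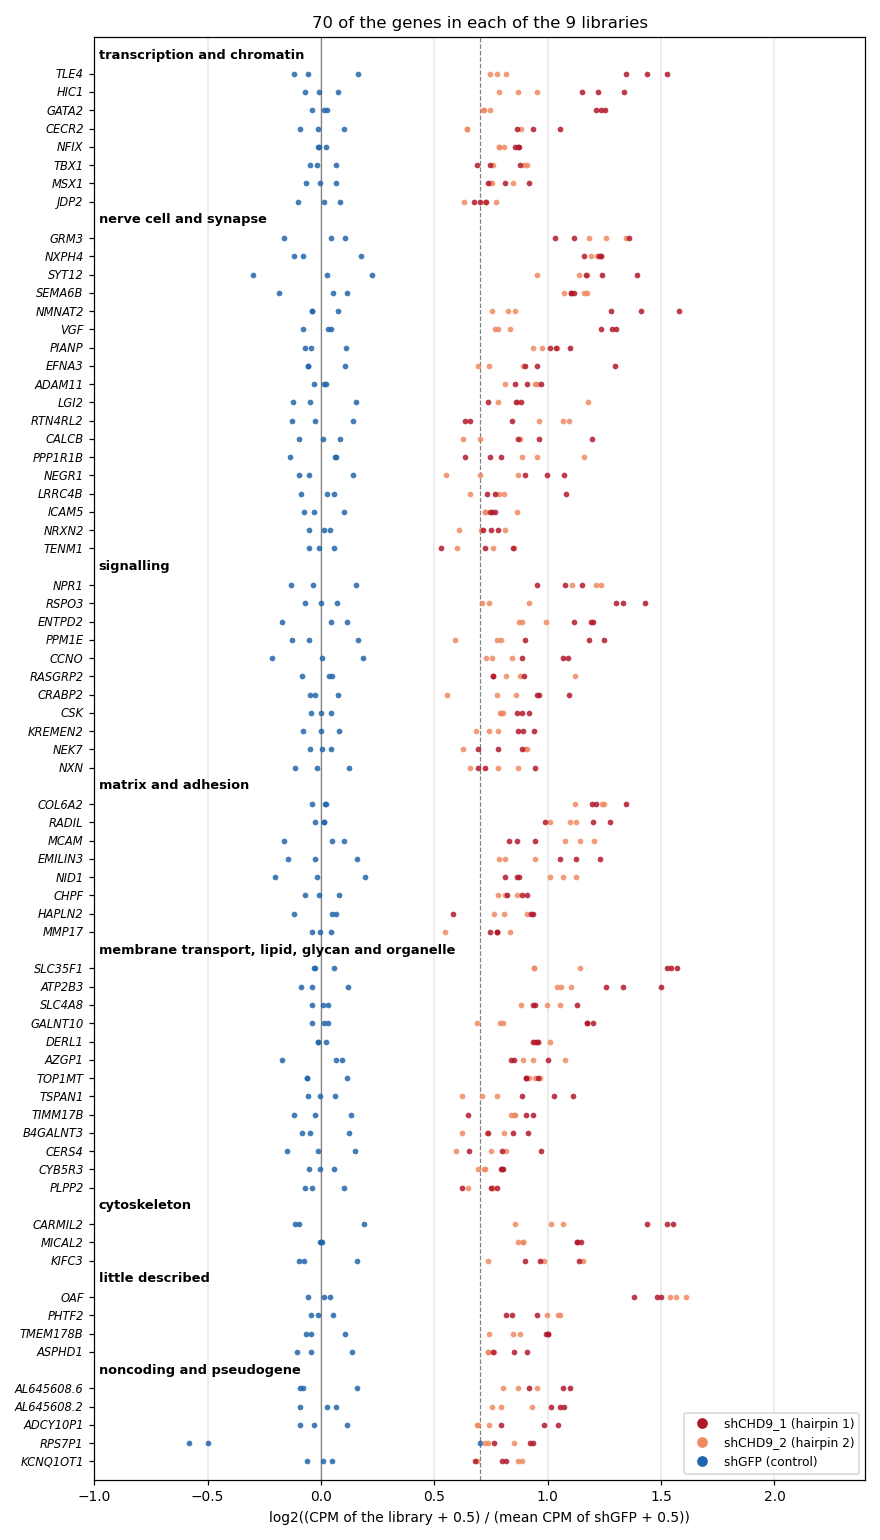
Log2 ratio of each library to the mean of shGFP for 70 of the genes (rows, sorted by role and by mean ratio), with 3 points each for shCHD9_1, shCHD9_2 and shGFP and a dashed line at the threshold of 0.7. OAF has the highest ratio with hairpin 2 (1.57), and in RPS7P1 a single shGFP library lies close to the CHD9 hairpin libraries.

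Of 9 transcription and chromatin genes, 6 were higher with hairpin 1 than with hairpin 2 and 3 did not pass. The background to this and the following counts is that 15.6% of all tested genes were higher and 13.6% lower with hairpin 1, and 21.9% and 18.5% of those of at least 5 CPM. GATA2 (ENSG00000179348.12, chromosome 3, 128479427 to 128493185, minus strand, GRCh38), a zinc finger factor, measured 398, 388 and 393 CPM with hairpin 1, 275, 280 and 274 CPM with hairpin 2, and 168, 170 and 162 CPM in shGFP. The groups were fully apart, and hairpin 1 exceeded hairpin 2 by 0.55 on the log2 scale (SE 0.03, edgeR adjusted p = 1.92e-21). NFIX, of the nuclear factor I family, was the most abundant of the 72 genes, with 924, 926 and 915 CPM with hairpin 1, 871, 872 and 885 CPM with hairpin 2, and 501, 513 and 503 CPM in shGFP. Here the hairpins were closer, at a log2 difference of 0.12 (SE 0.02, edgeR adjusted p = 3.84e-05), a call that did not hold once GC content and length were corrected for (0.03).

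TLE4 (ENSG00000106829.19, chromosome 9, 79571773 to 79726882, plus strand), a corepressor of the Groucho family, measured 13.0, 12.2 and 13.9 CPM with hairpin 1, 8.28, 7.85 and 8.04 CPM with hairpin 2, and 5.08, 4.08 and 4.29 CPM in shGFP. Its groups were apart as well, with a hairpin difference of 0.74 on the log2 scale (SE 0.10, edgeR adjusted p = 6.03e-08). HIC1, a zinc finger repressor, averaged 7.01, 5.32 and 2.68 CPM with hairpin 1, with hairpin 2 and in shGFP, and 29.8% of its annotated exon bases overlap SMG6 on the opposite strand. CECR2, a bromodomain protein of chromatin remodelling complexes, was likewise higher with hairpin 1 than with hairpin 2 (log2 difference 0.29, edgeR adjusted p = 0.032). For the T-box factor TBX1, the homeobox factor MSX1 and JDP2, a leucine zipper partner of Jun, the difference between the hairpins did not pass, at -0.05, 0.08 and 0.03 with standard errors of 0.09 each.

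**Figure D2:**
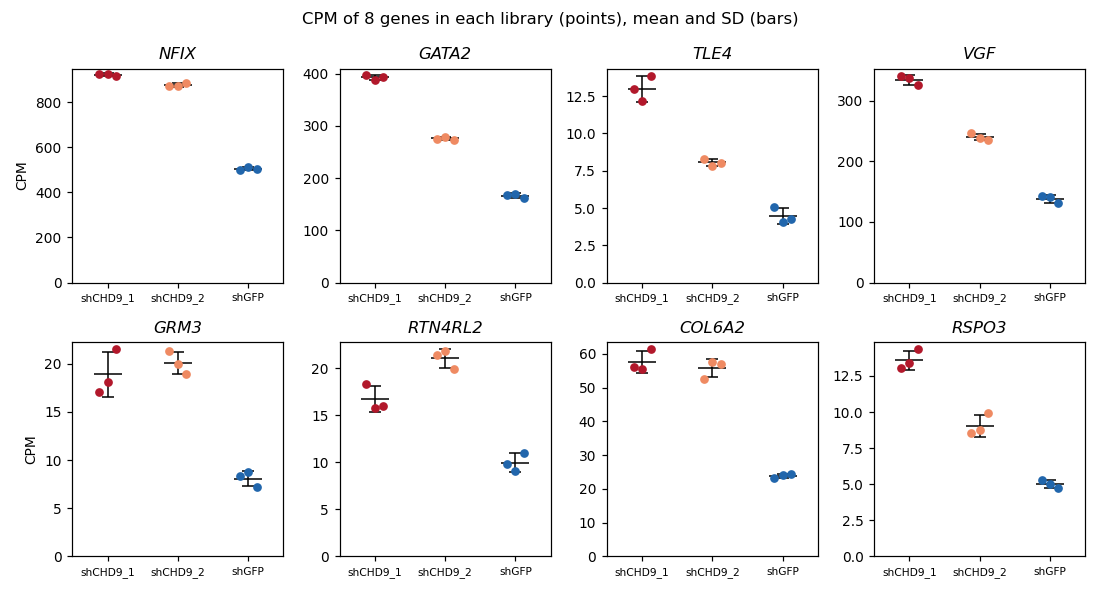
CPM (vertical axes, from 0) of 8 genes in each library, in the order shCHD9_1, shCHD9_2 and shGFP, with the mean and SD of 3 libraries as bars. NFIX, GATA2, TLE4, VGF and RSPO3 step down over the 3 groups without overlap, GRM3 and COL6A2 overlap between the hairpins, and RTN4RL2 is higher with hairpin 2.

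Of the 19 genes sorted to nerve cells and synapses, 6 were higher and 2 lower with hairpin 1 than with hairpin 2. Among tested genes of at least 5 CPM, 21.9% were higher and 18.5% lower. VGF (ENSG00000128564.7, chromosome 7, 101162509 to 101165593, minus strand), the precursor of secreted neuropeptides, measured 341, 337 and 326 CPM with hairpin 1, 247, 238 and 236 CPM with hairpin 2, and 143, 141 and 131 CPM in shGFP. The groups did not overlap, and hairpin 1 was above hairpin 2 by 0.52 on the log2 scale (SE 0.03, edgeR adjusted p = 1.2e-18). NMNAT2, an enzyme of NAD synthesis that maintains axons, measured 9.96, 8.83 and 7.99 CPM with hairpin 1, 5.41, 5.85 and 5.70 CPM with hairpin 2, and 2.91, 3.19 and 2.91 CPM in shGFP. Its step between the hairpins was 0.69 on the log2 scale (SE 0.12, edgeR adjusted p = 5.8e-06).

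For other genes of the synapse the difference between the hairpins did not pass the test. GRM3, a metabotropic glutamate receptor, measured 17.1, 18.1 and 21.5 CPM with hairpin 1, 21.3, 19.99 and 18.96 CPM with hairpin 2, and 8.35, 8.74 and 7.16 CPM in shGFP. The hairpin groups overlapped (log2 difference -0.04, SE 0.08, edgeR adjusted p = 0.756). NXPH4, a neurexophilin, likewise overlapped between the hairpins, with 37.0, 35.1 and 36.7 CPM with hairpin 1, 35.9, 37.0 and 36.5 CPM with hairpin 2, and 14.2, 17.5 and 14.6 CPM in shGFP. SYT12, a synaptotagmin, had a difference of 0.23 that did not pass (SE 0.10, edgeR adjusted p = 0.096).

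The reverse order of hairpins was found in this group. RTN4RL2 (ENSG00000186907.8, chromosome 11, 57460549 to 57477534, plus strand), a homologue of the Nogo receptor, measured 18.3, 15.8 and 16.0 CPM with hairpin 1, 21.4, 21.8 and 19.9 CPM with hairpin 2, and 9.78, 9.09 and 11.03 CPM in shGFP. Hairpin 1 was below hairpin 2 (log2 difference -0.30, SE 0.08, edgeR adjusted p = 0.0019). PPP1R1B, a phosphatase inhibitor of dopamine-responsive neurons, measured 11.7, 13.1 and 12.6 CPM with hairpin 1, 13.97, 14.6 and 17.0 CPM with hairpin 2, and 6.61, 7.67 and 7.70 CPM in shGFP. Its difference of -0.24 (SE 0.09, edgeR adjusted p = 0.034) was lost with DESeq2 and without any 1 of 3 libraries: shCHD9_1 replicate 1, shCHD9_1 replicate 3 or shCHD9_2 replicate 3. EFNA3, an ephrin ligand, CALCB, a calcitonin gene-related peptide, and NEGR1, a neuronal adhesion protein, were higher with hairpin 1 than with hairpin 2 by 0.33, 0.33 and 0.34 (edgeR adjusted p = 0.0085, 0.0056 and 0.0015). The remaining 8 genes of the group did not differ past the threshold between the hairpins, among them the neurexin gene NRXN2, the adhesion gene ICAM5 and the semaphorin gene SEMA6B, with log2 differences of 0.09, 0.03 and 0.01 and standard errors of 0.05, 0.04 and 0.09.

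Of 11 signalling genes, 7 passed between the hairpins, each higher with hairpin 1, against 21.9% higher among tested genes of at least 5 CPM. RSPO3, a secreted R-spondin that strengthens Wnt signalling, measured 13.1, 13.4 and 14.3 CPM with hairpin 1, 8.52, 8.73 and 9.91 CPM with hairpin 2, and 5.29, 5.01 and 4.75 CPM in shGFP. The 3 groups were apart, and the hairpin difference was 0.64 on the log2 scale (SE 0.09, edgeR adjusted p = 3.96e-07). KREMEN2, a receptor for Dickkopf proteins that dampens the same pathway, averaged 84.9, 75.6 and 45.2 CPM with hairpin 1, with hairpin 2 and in shGFP. Its exons overlap PKMYT1 on the opposite strand over 13.8% of their length.

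CSK, a kinase that holds Src kinases in check, averaged 113 CPM with hairpin 1, 105 CPM with hairpin 2 and 60.5 CPM in shGFP. The nucleotidase gene ENTPD2, the phosphatase gene PPM1E, CCNO, a cyclin-like protein of multiciliated cells, and CRABP2, a carrier of retinoic acid, were higher with hairpin 1 by 0.30, 0.45, 0.29 and 0.30 (edgeR adjusted p = 0.0018, 0.00070, 0.0035 and 0.0034). The natriuretic peptide receptor gene NPR1 stood at 8.36, 8.83 and 7.63 CPM with hairpin 1, 9.39, 8.54 and 9.24 CPM with hairpin 2, and 3.33, 3.59 and 4.18 CPM in shGFP, with overlapping hairpin groups. The mitotic kinase gene NEK7, the Rap exchange factor gene RASGRP2 and the thioredoxin-like gene NXN did not pass between the hairpins either. With the GC and length correction NEK7 passed as higher with hairpin 1 (0.13) and RASGRP2 as lower (-0.21).

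Of 8 matrix and adhesion genes, 1 passed between the hairpins, higher with hairpin 1, against 21.9% higher and 18.5% lower among tested genes of at least 5 CPM. COL6A2 (ENSG00000142173.16, chromosome 21, 46098097 to 46132849, plus strand), a chain of type VI collagen, measured 56.0, 55.4 and 61.4 CPM with hairpin 1, 52.6, 57.5 and 57.1 CPM with hairpin 2, and 23.2, 24.2 and 24.3 CPM in shGFP. The hairpin groups overlapped, with a log2 difference of 0.09 (SE 0.05, edgeR adjusted p = 0.138). MCAM, a cell adhesion protein of the immunoglobulin family, measured 8.90, 8.17 and 8.40 CPM with hairpin 1, 9.79, 10.3 and 10.8 CPM with hairpin 2, and 4.55, 4.75 and 3.87 CPM in shGFP. The hairpin groups were apart, yet the difference of -0.23 did not pass (SE 0.10, edgeR adjusted p = 0.074), although it did with the GC and length correction (-0.31). The exons of MCAM overlap CBL on the opposite strand over 6.86% of their length, and CBL averaged 61.3, 58.8 and 47.6 CPM in the same order of groups. Markers of fibroblasts, which make much matrix, did not all go the same way. Of the 6 markers, 3 reached 1 CPM in shGFP. The summed level of the 6 was 10.8 to 12.3 CPM with hairpin 1, 10.7 to 13.6 CPM with hairpin 2 and 9.04 to 9.71 CPM in shGFP. COL3A1 averaged 3.23, 3.41 and 1.80 CPM and COL1A1 7.20, 7.16 and 5.05 CPM in that order of groups. PDGFRB averaged 1.09, 1.04 and 1.33 CPM and LUM 0.059, 0.063 and 0.987 CPM, and DCN had no count with hairpin 1. COL1A2 averaged 0.031, 0.145 and 0.119 CPM. The part of fibroblast RNA in the matrix genes was not tested.

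NID1, a basement membrane glycoprotein, likewise averaged less with hairpin 1 than with hairpin 2 without passing (10.6, 12.4 and 5.67 CPM with hairpin 1, with hairpin 2 and in shGFP; log2 difference -0.19, SE 0.09). EMILIN3, an extracellular glycoprotein, was the gene that passed, at 9.57, 7.73 and 4.07 CPM (log2 difference 0.35, edgeR adjusted p = 0.0097). Its exons overlap LPIN3 on the opposite strand over 16.3% of their length, and LPIN3 averaged 35.7, 35.3 and 31.6 CPM. CHPF, a chondroitin polymerising factor, the hyaluronan link protein gene HAPLN2, the membrane metalloproteinase gene MMP17 and RADIL, a Rap effector in adhesion, had differences of 0.05 to 0.13.

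Of 13 genes of transport, lipids, glycans and organelles, 5 passed between the hairpins, each higher with hairpin 1, against 21.9% higher among tested genes of at least 5 CPM. SLC35F1, a member of a nucleotide sugar transporter family, measured 13.95, 13.8 and 14.2 CPM with hairpin 1, 8.99, 10.4 and 9.002 CPM with hairpin 2, and 4.65, 4.35 and 4.37 CPM in shGFP. The 3 groups were apart, and the log2 difference was 0.59 (SE 0.09, edgeR adjusted p = 1.16e-06). ATP2B3, a plasma membrane calcium pump, averaged 14.6, 11.8 and 5.36 CPM in the same order of groups, a difference of 0.34 (edgeR adjusted p = 0.0019). GALNT10, an enzyme that starts mucin-type O-glycans, averaged 98.6, 73.5 and 43.2 CPM with a difference of 0.47 (edgeR adjusted p = 1.06e-13).

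The tetraspanin gene TSPAN1 and CYB5R3, a cytochrome b5 reductase, were also higher with hairpin 1, by 0.37 and 0.13 (edgeR adjusted p = 0.00064 and 0.0011), and CYB5R3 lost its call after the GC and length correction (0.04). DERL1, of the pathway that removes misfolded proteins from the endoplasmic reticulum, and TOP1MT, the mitochondrial topoisomerase, had small standard errors and small differences between the hairpins. DERL1 had 116, 115 and 116 CPM with hairpin 1, 115, 121 and 116 CPM with hairpin 2, and 59.2, 59.2 and 60.7 CPM in shGFP. Its log2 difference was 0.02 with a standard error of 0.03, and that of TOP1MT was 0.02 with a standard error of 0.04.

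Among the 3 cytoskeletal genes, CARMIL2, a regulator of actin capping, measured 20.6, 21.9 and 22.3 CPM with hairpin 1, 15.2, 13.6 and 15.8 CPM with hairpin 2, and 6.77, 6.70 and 8.39 CPM in shGFP. The step between the hairpins was 0.59 (SE 0.08, edgeR adjusted p = 7.61e-08). MICAL2, an oxidoreductase that disassembles actin filaments, had 170, 172 and 170 CPM with hairpin 1, 142, 144 and 144 CPM with hairpin 2, and 77.7, 77.2 and 77.3 CPM in shGFP, with a spread within groups far below the steps between them (log2 difference 0.29, edgeR adjusted p = 6.69e-11). Of the little described genes, OAF measured 34.03, 34.4 and 31.7 CPM with hairpin 1, 37.2, 35.4 and 36.01 CPM with hairpin 2, and 11.95, 12.2 and 11.4 CPM in shGFP, the highest ratio of the 72 genes with hairpin 2 (1.57). PHTF2, a membrane protein, was lower with hairpin 1 than with hairpin 2 by -0.12 (edgeR adjusted p = 0.011), a call that was lost without shCHD9_1 replicate 1 (-0.10) or shCHD9_1 replicate 3 (-0.10) and whose sign turned with the GC and length correction (0.02).

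The noncoding genes include AL645608.2 and AL645608.6, where the first lies within the span of the second on the same strand of chromosome 1, and KCNQ1OT1, whose exons overlap those of KCNQ1 on the opposite strand. The pseudogene RPS7P1 measured 21.7, 19.2 and 21.6 CPM with hairpin 1, 20.5, 18.9 and 18.7 CPM with hairpin 2, and 7.72, 7.27 and 18.4 CPM in shGFP, so that its place among the 72 genes rests on 2 of the 3 shGFP libraries. The values of RPS7P1 and of ADCY10P1, also a pseudogene, are uncertain, since reads may be shared with their parent genes. In all, 20 of the 72 genes share exon bases with another tested gene, 18 of them with a gene on the opposite strand. The strand setting of the counting is not given in the sources used here, so reads from such pairs cannot be told apart.

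Over all roles, 30 of the 72 genes (41.7%) were higher with hairpin 1, against 15.6% of all tested genes, and 3 (4.17%) were lower, against 13.6%. Among tested genes of at least 5 CPM, which is the level the 72 genes share, the percentages were 21.9 higher and 18.5 lower. The hairpin groups did not overlap in 34 of the 72 genes, against 40.2% of all tested genes. The median log2 difference was 0.13 for the 72 genes and 0.01 for tested genes of at least 5 CPM. The 83 genes that meet the mirrored thresholds, lower with both hairpins, had a median of -0.19, with 4 higher and 39 lower with hairpin 1. The sets higher and lower with both hairpins thus lean opposite ways, each toward the wider change with hairpin 1. Both sets were selected on the means that form this difference, so these shares are no independent evidence.

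**Figure D3:**
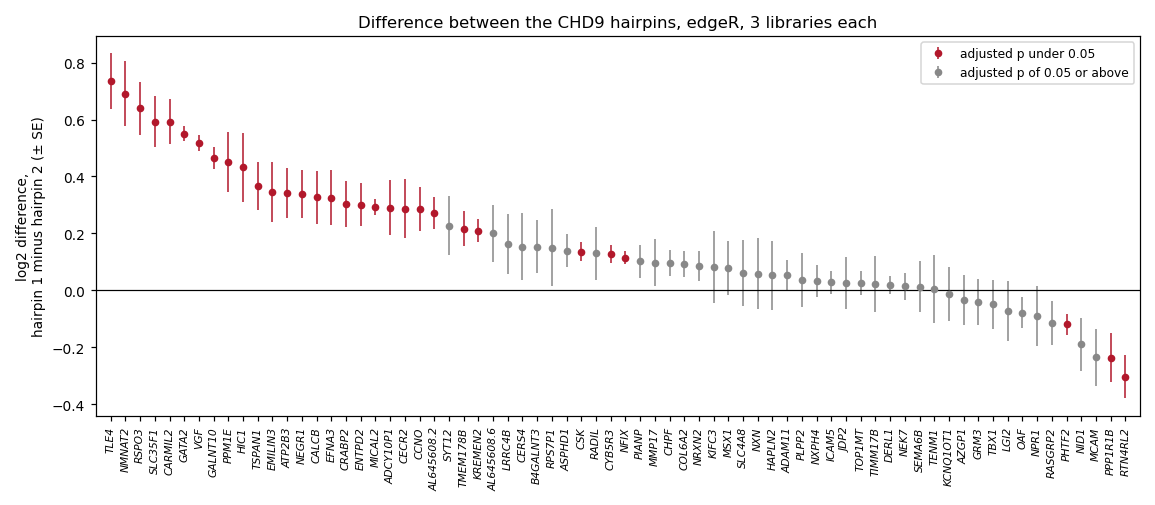
Log2 difference between the hairpins, hairpin 1 minus hairpin 2, with its standard error, for 70 of the genes in descending order, 3 libraries per hairpin, edgeR. Red points passed an adjusted p under 0.05: 28 lie above 0 and 3 below it.

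The 39 genes that did not pass had differences of -0.23 to 0.23 with standard errors of 0.03 to 0.13. Standard errors were smaller in abundant genes. Of 14 genes with a mean of at least 50 CPM, 10 passed, against 52.5% of tested genes at that level, with standard errors of 0.02 to 0.05, and of 58 genes under 50 CPM, 23 passed, against 31.7% of tested genes of 5 to 50 CPM, with standard errors of 0.04 to 0.13. The median size of the difference was 0.13 in the more abundant genes and 0.15 in the others. Smaller differences in the weakly expressed genes were not detectable at this depth.

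A feature that the rule did not use is base composition. The annotated transcripts of the 72 genes had a median GC content of 59.4%, against 49.1% for tested genes of at least 5 CPM and 43.6% for the 83 genes lower with both hairpins. All transcripts of a gene were pooled, so an exon in several transcripts counts several times. A content of at least 60% was found in 33 of the 72 genes (45.8%) and in 15.4% of the tested genes of at least 5 CPM. Exonic length was similar, with a median of 4929 bases for the 72 genes and 5187 bases for the tested genes of at least 5 CPM. GC content moves with the result, and its part in it was not tested. After per-library offsets for GC content and length, the edgeR log2 fold changes of the 72 genes, again as a description, had medians of 0.98 with hairpin 1 and 0.82 with hairpin 2, with lowest values of 0.55 and 0.58. Without the offsets the medians of these fold changes, a different measure from the CPM ratios of the rule, were 1.05 and 0.87. With these offsets 25 of the 72 genes were higher with hairpin 1 than with hairpin 2, against 13.7% of tested genes, and 5 were lower, against 12.4%. Of the 30 genes higher without the correction, 24 were higher with it, and those that were not include CECR2, CSK, CYB5R3, EMILIN3 and NFIX. Only with the correction was NEK7 called higher, and MCAM, OAF and RASGRP2 lower.

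**Figure D4:**
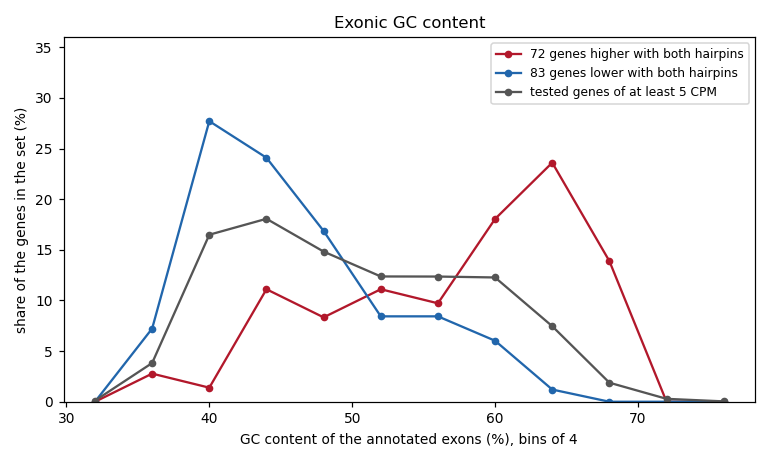
Share of genes (vertical axis, %) by GC content of their annotated transcripts (horizontal axis, labelled as exons, bins of 4 percentage points) for the 72 genes, the 83 genes lower with both hairpins, and all tested genes of at least 5 CPM. The 72 genes have most of their share at 58% and above, while the 83 genes peak near 40%.

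Paralogues of the 72 genes, from a list written once the genes were known, gave a comparison that the rule did not use. Of 202 listed paralogues 135 were tested, belonging to 54 of the 72 genes. Both comparisons share the shGFP libraries. With hairpin 1, 51 paralogues were higher than in shGFP (37.8%, against 23.9% of all tested genes) and 34 lower (25.2%, against 23.4%). With hairpin 2, 40 were higher (29.6%, against 17.2%) and 25 lower (18.5%, against 18.5%). Their median log2 fold changes were 0.15 and 0.05.

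The paralogues and neighbours named next were chosen after their values were seen, and each pair of log2 fold changes gives hairpin 1 and then hairpin 2, against shGFP. Some paralogues were higher with both hairpins, like the gene they are related to. RTN4RL1, the closest homologue of RTN4RL2, averaged 21.4 CPM with hairpin 1, 15.2 CPM with hairpin 2 and 9.71 CPM in shGFP (log2 fold changes 1.17 and 0.64, edgeR adjusted p = 4.31e-16 and 5.7e-08). COL6A1, which assembles with COL6A2 in collagen VI, averaged 134, 116 and 93.6 CPM (0.55 and 0.31, edgeR adjusted p = 2.92e-18 and 4.75e-10). The bicarbonate cotransporter gene SLC4A4, a relative of SLC4A8, averaged 6.59, 3.92 and 1.13 CPM and rose by 2.54 and 1.76, and the Wnt corepressor gene TLE2 by 0.66 and 0.59. KREMEN1 rose by 0.59 and 0.27, the ceramide synthase gene CERS1 by 0.80 and 0.56, and the ephrin gene EFNA1 by 0.64 and 0.20. Each of these passed the edgeR test with both hairpins.

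Other paralogues were lower with both hairpins. GATA3 averaged 69.5 CPM with hairpin 1, 73.8 CPM with hairpin 2 and 95.6 CPM in shGFP (log2 fold changes -0.43 and -0.39, edgeR adjusted p = 3.96e-13 and 1.11e-11), while GATA2 was higher. The calcium pump gene ATP2B1 fell by 0.59 and 0.21, the glutamate receptor gene GRM8 by 1.25 and 0.45, and TLE3 by 0.14 and 0.15. DERL2 fell by 0.27 and 0.21, the nuclear topoisomerase gene TOP1 by 0.19 and 0.11, and the O-glycan enzyme genes GALNT3 and GALNT7 by 0.83 and 0.60 with hairpin 1 and by 0.44 each with hairpin 2. All of these passed with both hairpins as well. Paralogues of the same gene could go opposite ways. For GALNT10, GALNT16 rose by 1.46 and 0.76 and GALNT6 by 1.19 and 1.06, and for GATA2, GATA5 rose by 0.35 and 0.325. Each of these rises passed with both hairpins. GALNT6 was weakly expressed, at 2.36 CPM with hairpin 1, 2.22 CPM with hairpin 2 and 1.04 CPM in shGFP. It also shares 392 exon bases with SLC4A8, itself a gene chosen by the rule, on the opposite strand. The strand setting of the counting is not given, so reads of this pair cannot be told apart. The part of SLC4A8 reads in the rise of GALNT6 was not tested. For NFIX, the paralogue NFIC was higher (0.44 and 0.11), NFIA was lower with hairpin 1 (-0.26, edgeR adjusted p = 0.028), and NFIB passed with neither (0.02 and -0.09).

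Within 50 kb of 64 of the 72 genes lay 215 other tested genes. The sets of neighbours and paralogues are not separate, since genes such as RTN4RL1, EFNA1 and GALNT6 are in both. A neighbour of CSK is on the list of names that the rule leaves out. With hairpin 1, 85 of these neighbours were higher than in shGFP (39.5%, against 23.9% of tested genes) and 29 were lower (13.5%, against 23.4%). With hairpin 2, 61 were higher (28.4%, against 17.2%) and 26 lower (12.1%, against 18.5%). Without the 20 neighbours whose exons overlap those of a member, the percentages higher were 38.5 and 28.2. The neighbours too were rich in GC, with a median of 57.3%, and with GC and length offsets 27.0% were higher with hairpin 1, against 21.6% of tested genes, and 23.3% with hairpin 2, against 17.0%.

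**Figure D5:**
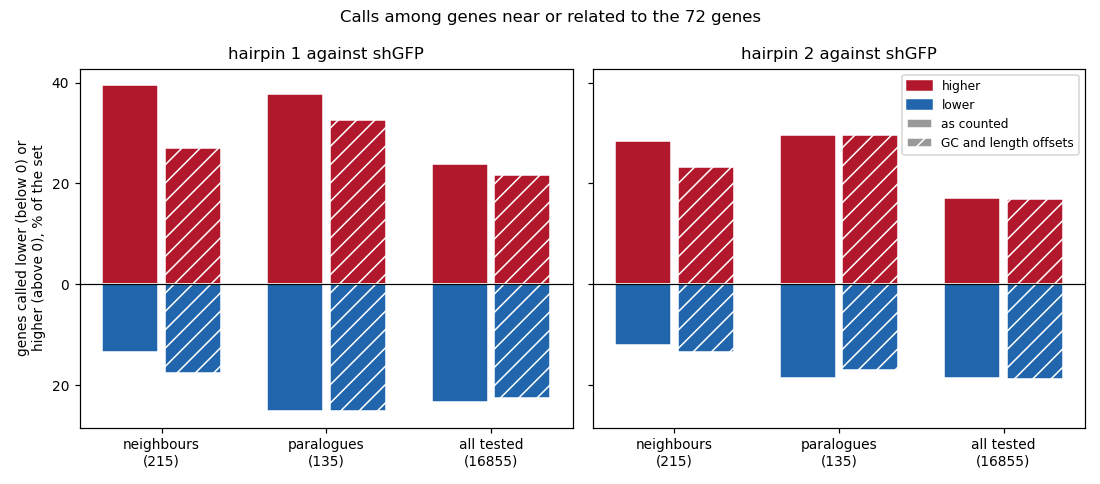
Share of genes called higher (above 0) and lower (below 0) than in shGFP with hairpin 1 (left) and hairpin 2 (right) among neighbours within 50 kb, paralogues, and all tested genes, plain bars as counted and hatched bars with GC and length offsets. With the offsets the share of neighbours higher with hairpin 1 is 27.0%, against 39.5% as counted.

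Several of these neighbours are known genes. MCIDAS, a regulator of multiciliated cells, lies 3837 bases from CCNO and averaged 5.07 CPM with hairpin 1, 5.31 CPM with hairpin 2 and 3.21 CPM in shGFP (log2 fold changes 0.69 and 0.71, edgeR adjusted p = 0.00024 and 0.00023). NES, nestin, lies near CRABP2 and HAPLN2 and averaged 70.8, 78.6 and 45.5 CPM (0.67 and 0.78, edgeR adjusted p = 6.26e-18 and 3.69e-20). The lipid droplet gene PLIN5, near SEMA6B, averaged 4.18, 2.82 and 1.06 CPM and rose by 2.00 and 1.38. NRXN2 and RASGRP2, both among the 72 genes, lie 3723 bases apart on the same strand of chromosome 11, and PYGM, 933 bases beyond RASGRP2, averaged 0.513, 0.628 and 1.35 CPM and fell by 1.40 and 1.11.

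By chromosome, 11 of the 72 genes lie on chromosome 1 (15.3%, against 10.3% of tested genes of at least 5 CPM) and 9 on chromosome 11 (12.5%, against 5.53%). None lie on chromosomes 10, 13 or 18. Protein-coding genes make up 67 of the 72 (93.1%), against 93.3% of tested genes of at least 5 CPM.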

How the data were processed

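RNA from 22Rv1 cells was sequenced in 9 libraries, 3 for each of 3 hairpins. The submitters' processing notes name Trim Galore, STAR, DESeq2 and the build hg38, with no role or order; per the labels' protocols, libraries came from polyadenylated RNA with a directional kit. The deposited values are whole-number counts per gene with no normalisation. The counter, its version and its strand setting are not stated, and the annotation release is not given in the sources used here. Of 67071 gene identifiers, 58496 are in GENCODE 29, which gave coordinates and exons on GRCh38, and 60704 have a symbol.

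The members and lists were chosen with earlier results of these data known, and the paralogue list and the roles were written after the genes were known. CPM use the column sum. EdgeR 4.0.16 (R 4.3.3) fitted the 3 group means by quasi-likelihood to 16855 genes kept by filterByExpr at a minimum count of 10, scaled by TMM, with calls at an adjusted p under 0.05 (Benjamini-Hochberg) over all of them. The coefficient of variation between replicates was 2.74%, and libraries of a group differed by more than counting noise (chi-square per degree of freedom 1.72 to 2.83). Overlaps and neighbours used the GENCODE gene models. Genes are named by a rule: CHD9, the 10 highest mean ratios, the 5 highest and 5 lowest hairpin differences, the 5 most abundant, and 3 on each side of the ratio threshold; others describe a role, a family or a neighbourhood and were chosen after their values were seen. Some genes that the rule names are not reported here.

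Alternatives were DESeq2 size factors, limma 3.58.1 with voom weights, the Wald test of DESeq2 1.42.0, other filters and thresholds, fits on the compared groups, the replicate block, GC and length offsets, and leaving out each library. Tests by gene family by symbol were not made, since no family held 3 of the genes.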

Additional observations from a re-analysis of the deposited data

Results flagged for a closer look

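Among the genes named by the rule, each of the following had a difference between the hairpins that was itself tested (log2, hairpin 1 minus hairpin 2, quasi-likelihood test of edgeR, adjusted p under 0.05 by Benjamini-Hochberg). Higher with hairpin 1 were TLE4 (0.74), NMNAT2 (0.69), RSPO3 (0.64), SLC35F1 (0.59), CARMIL2 (0.59), GATA2 (0.55), VGF (0.52), TSPAN1 (0.37), ATP2B3 (0.34), MICAL2 (0.29), CYB5R3 (0.13) and NFIX (0.12). Lower with hairpin 1 were RTN4RL2 (-0.30), PPP1R1B (-0.24) and PHTF2 (-0.12). With GC and length offsets the calls of CYB5R3 (0.04) and NFIX (0.03) were lost, and the difference of PHTF2 turned sign (0.02). The call of PPP1R1B was lost with DESeq2 and without some single libraries. In each of the genes listed, all 3 libraries of a hairpin lay on the same side of all 3 of the other. Of all tested genes 40.2% showed this. The listed genes had passed a test on these same libraries, which makes it likely, so it is no further evidence. CHD9 itself was lower with hairpin 1 than with hairpin 2 (-0.28), and the part of this in the differences was not tested.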

How the results depend on the processing

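The number of genes found by the rule was 132 at a mean of at least 1 CPM, 41 at 10 CPM, 228 at a log2 ratio of at least 0.5, 12 at a ratio of 1 and 20 with 5 CPM added, against 72. Between the hairpins, 99 were then higher and 9 lower with hairpin 1 at the ratio of 0.5, 4 and 0 at the ratio of 1, and 7 and 1 with 5 CPM added. By edgeR log2 fold changes in place of ratios the number of genes was 89, with all 72 among them. With GC and length offsets on those fold changes it was 69, of which 56 were among the 72. Of the 72 genes, 5 were lower with hairpin 1 with GC and length offsets, alone or with the replicate block, and 1 at an adjusted p under 0.01, against 3. Leaving out a library, with or without choosing genes again, gave 66 to 85 genes, 26 to 35 higher with hairpin 1 and 1 to 3 lower. When genes were chosen again, 62 to 70 of the 72 were kept, the fewest without shGFP replicate 3. Among paralogues, leaving out a library gave 47 to 51 higher and 29 to 34 lower with hairpin 1, and 36 to 41 higher and 21 to 25 lower with hairpin 2. With the replicate block alone 30 genes were higher and 3 lower, as without it; same-numbered libraries had correlations of -0.022 to 0.040, so the numbers do not pair them. Hairpin differences that turned sign were small and had not passed, except that of PHTF2 (0.022 with GC and length offsets and 0.023 with the block added). With the same corrections COL6A2 gave -0.0079 and -0.013, NXPH4 -0.055 and -0.054, and JDP2 -0.031 and -0.028. Leaving out a library gave -0.012 to 0.060 for JDP2, -0.150 to 0.018 for GRM3 and -0.079 to 0.101 for TENM1. Over all other results the rest kept their direction and side of the threshold, apart from 16 calls of single genes that were lost and 4 that were gained. At under 50 CPM, standard errors of up to 0.13 limit what differences can be seen.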
